A study of Homo sapiens with 4 samples.

Results

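DNA replication and G1/S genes are described here in BEAS-2B cells after Cs-137 gamma irradiation. The set holds 49 genes chosen by symbol, of 36601 genes listed in each library, and all 49 symbols were found. BEAS-2B is a human bronchial epithelial line immortalized with a hybrid of adenovirus and SV40, whose large T antigen binds the RB and p53 proteins, so G1/S control in these cells is not that of normal epithelium. Cells grown in flasks received 10 mGy, 100 mGy or 1 Gy, or no radiation (control), and were taken for droplet-based single-cell sequencing 30 min later. The low-dose group was 10 mGy and 100 mGy, and the high-dose group was 1 Gy. Each group is 1 library, and all comparisons with control share the same control library, so dose and library cannot be told apart and no test between doses was possible.

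The libraries held between 211752280 and 285806026 UMIs (unique molecular identifiers, 1 for each captured mRNA molecule) in 11111 to 21514 cell barcodes. Barcodes with less than the library median divided by 3 in UMIs were 19.6% of those in control cells, 41.4% after 10 mGy, 27.4% after 100 mGy and 25.4% after 1 Gy. Pairs of libraries shared 76 to 134 barcode sequences. Ribosomal protein genes took 13.9% of UMIs in control cells, 19.9% after 10 mGy, 21.7% after 100 mGy and 14.0% after 1 Gy. Of the 6 epithelial markers checked, KRT7, KRT8 and KRT18 were each over 200 CPM in every library, whereas KRT19, EPCAM and CDH1 were each under 3 CPM. The 6 mesenchymal markers (VIM and FN1 among them) summed to 4456 CPM in control cells, 3309 after 10 mGy, 3156 after 100 mGy and 4031 after 1 Gy. FN1 alone was at 1546, 622.5, 640.1 and 1466 CPM in the same order, so it was lower in both low-dose libraries, and whether this had a part in the results was not tested. VIM was between 2344 and 2702 CPM, whereas the mesenchymal markers COL1A2 and DCN were each at most 0.113 CPM in every library. The summed level of 4 blood markers lay between 7.11 and 10.8 CPM, nearly all of it CD68, with CD3E at 0 in every library, and that of 3 endothelial markers between 0.470 and 0.679 CPM.

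Before a cell copies its DNA, the origin recognition complex (ORC), CDC6 and CDT1 load rings of MCM2 to MCM7 onto origins in G1. Cyclin E and the E2F transcription factors drive entry into S phase, when CDC45 and GINS turn the rings into active helicases. DNA is then copied by polymerases alpha, delta and epsilon with the sliding clamp PCNA, while replication protein A coats single strands and chromatin is rebuilt behind the fork. Many of these genes are E2F targets, and their transcripts are known to peak around G1/S and early S phase.

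A level is given as CPM, the UMIs of a gene per 1000000 UMIs of the library over all deposited barcodes. Ranges in brackets are exact 95% intervals, which reflect counting error alone. The 49 genes together gave 3633 CPM in the control, 3467 after 10 mGy, 3245 after 100 mGy and 3710 after 1 Gy, or between 0.325% and 0.371% of all UMIs. Single genes ranged from 5.55 CPM (CCNE1 after 100 mGy) to 249 CPM (PCNA after 10 mGy). Of the 49, 48 had a mean of at least 10 CPM over the 4 libraries, as did 8507 of all genes, and CCNE1 did not. The summed level was lower in both low-dose libraries than in the other two, and lowest after 100 mGy. The plot of levels shows every gene in every library.

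**Figure D1:**
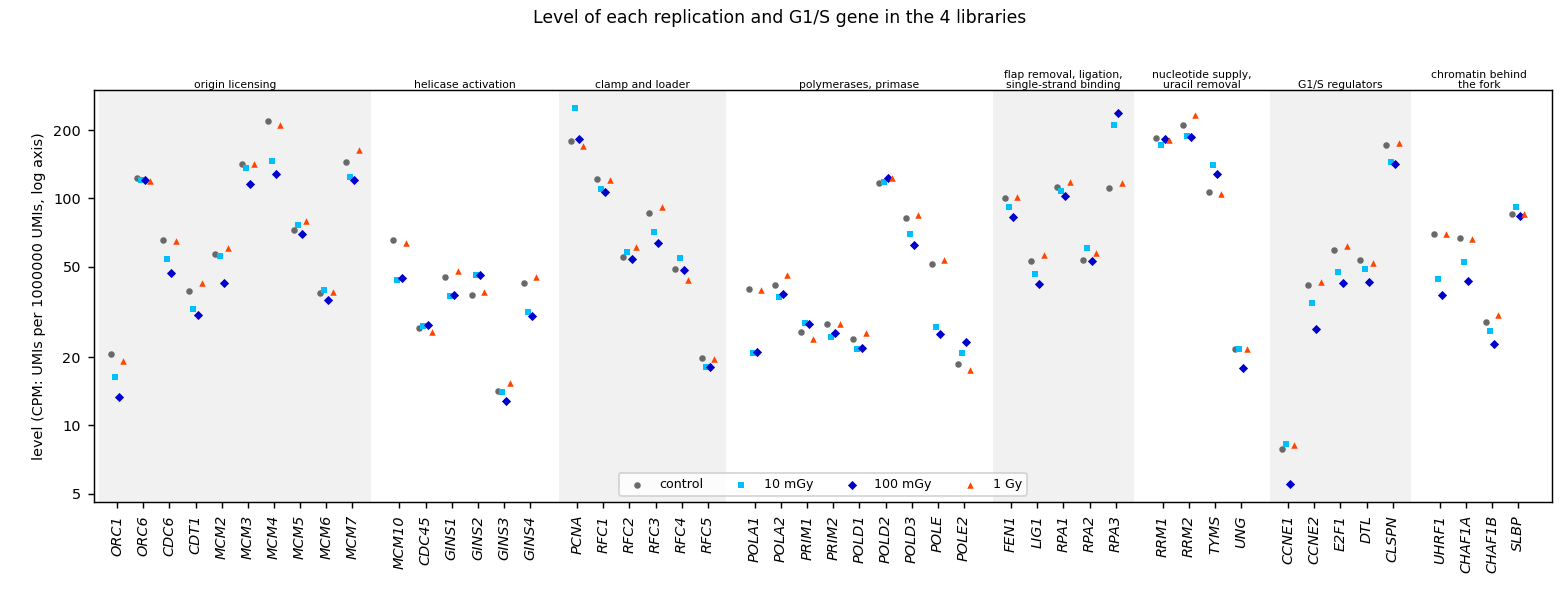
Level of each of the 49 genes (vertical axis, CPM on a log axis) by role, with 1 point for each library (circle control, square 10 mGy, diamond 100 mGy, triangle 1 Gy). The control and 1 Gy points lie close together for every gene, while RPA3 and TYMS lie above them and POLA1, POLE, MCM4 and UHRF1 below them in both low-dose libraries.

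Relative to control the summed level was 0.954 (0.951 to 0.957) after 10 mGy, 0.893 (0.890 to 0.896) after 100 mGy and 1.02 (1.018 to 1.024) after 1 Gy. These ratios are shares of all UMIs, and they depend on what is taken as unchanged. The median of the 8507 genes had a log2 ratio to control of -0.30 after 10 mGy, -0.38 after 100 mGy and 0.02 after 1 Gy. The median of the 48 genes was -0.14, -0.23 and 0.02, in the same order. On the scale of the median gene (median ratio scaling), the direction of the sum turned at both low doses, to 1.18 after 10 mGy and 1.17 after 100 mGy, and it was 0.999 after 1 Gy. The summed level was therefore lower as a share of UMIs in the low-dose group, but higher on the scale of the median gene. The set was shorter in exons than other genes (median 4304 against 5335 bases), and ratios fell with length at both low doses, as given below. The part of length in this difference was not tested. Single genes did not all follow the sum. After 10 mGy RPA3 was at 1.89 of control as a share of UMIs, and POLE at 0.647 on the scale of the median gene. Without ribosomal protein and mitochondrially encoded genes in the total, the sum was 1.013 after 10 mGy and 0.969 after 100 mGy. In barcodes of low UMI count the summed level was 3795, 3656, 3401 and 3911 CPM, from control to 1 Gy, and in the other barcodes it was 3630, 3456, 3241 and 3704 CPM.

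At 10 mGy, 4 of 48 genes were over 1.2-fold higher than control (15.4% of all 8507 genes were) and 13 were over 1.2-fold lower (53.0% of all genes were). At 100 mGy, 4 were higher (14.0% of all genes) and 24 were lower (58.9% of all genes). At 1 Gy no gene of the set passed 1.2-fold, with 1.28% of all genes higher and 0.846% lower, and single ratios lay between 0.889 and 1.13. Between 100 mGy and 1 Gy, which shares no library with the comparison of 10 mGy with control, 3 genes were higher (14.0% of all genes) and 26 lower (60.6% of all genes), which became 16 higher and 5 lower on the scale of the median gene (32.4% and 29.2% of all genes). Each of the 4 counts against control in the low-dose group is a smaller share of the 48 genes than of all genes, for example 8.33% higher and 27.1% lower after 10 mGy. Between the 2 low doses, none was higher after 100 mGy than after 10 mGy (1.35% of all genes) and 6 were lower (12.7% of all genes). These 6, or 12.5% of the 48, were ORC1, MCM2, PCNA, UNG, CCNE2 and CHAF1A. Of these, MCM2, PCNA and CCNE2 stayed past the threshold on the scale of the median gene, ORC1 (0.863), UNG (0.881) and CHAF1A (0.873) did not, and RPA3 passed it upward (1.202), compared with 4.69% of all genes higher and 6.35% lower. On the scale of the median gene, 18 of the 48 were higher and 5 lower after 10 mGy (30.6% and 27.3% of all genes), and 16 were higher and 4 lower after 100 mGy (31.8% and 29.01% of all genes).

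**Figure D2:**
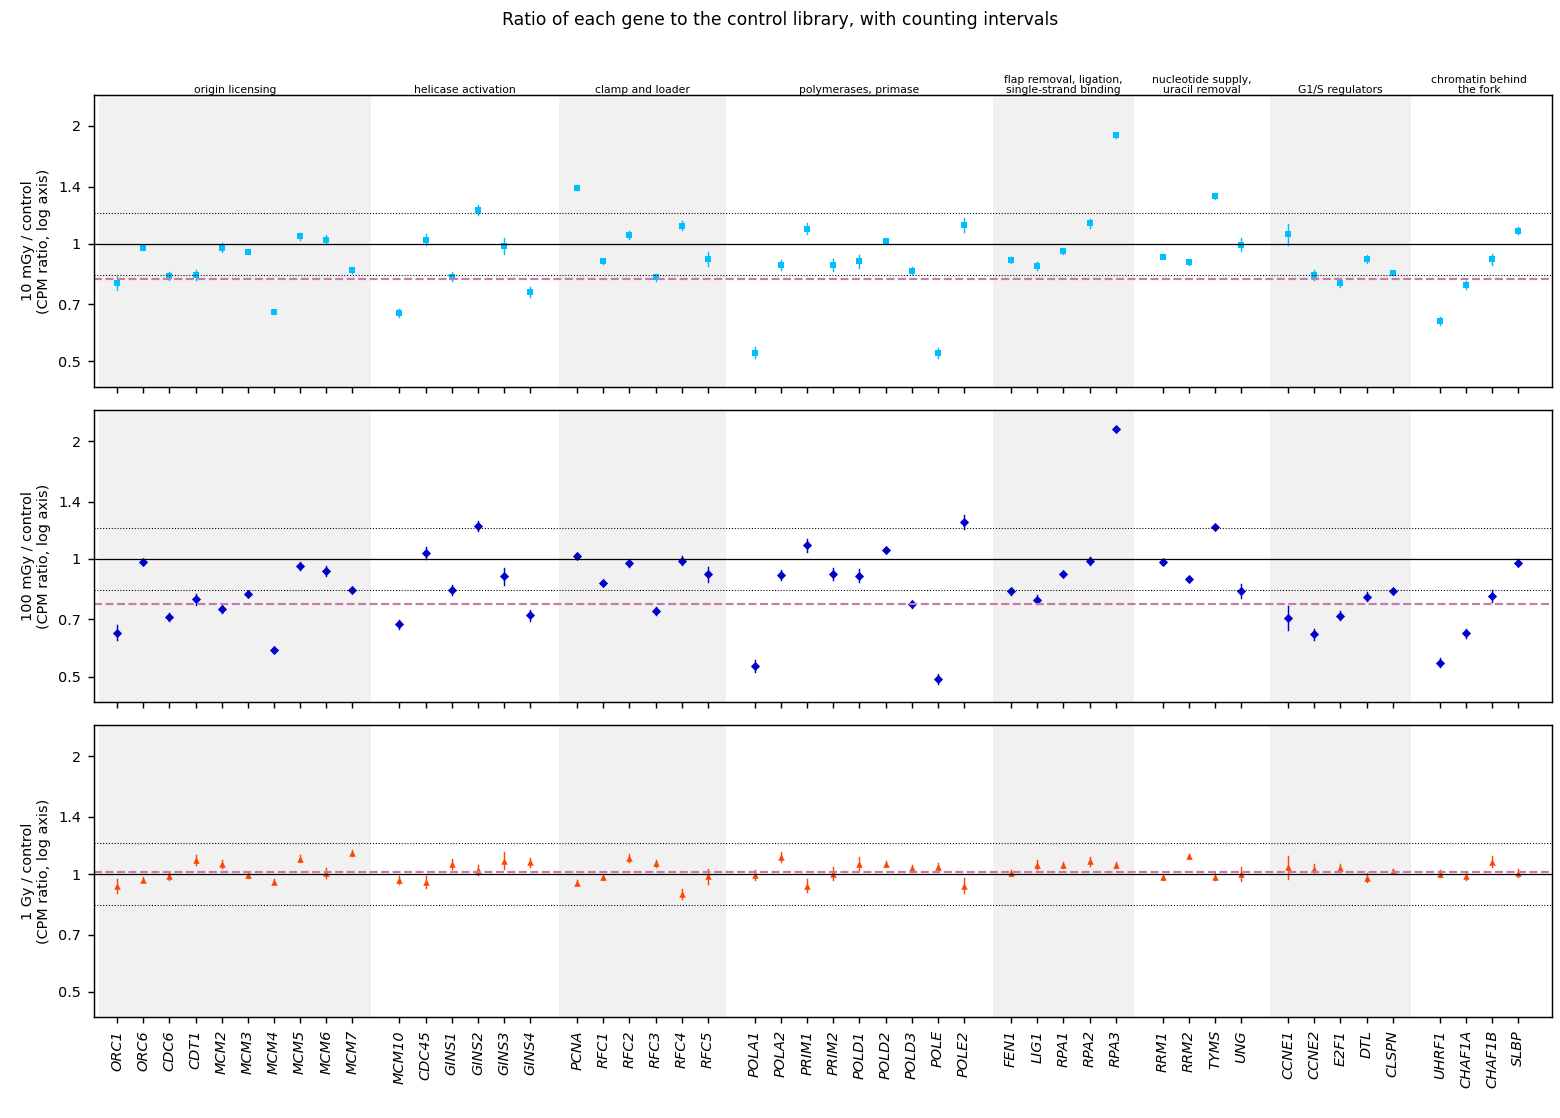
Ratio of CPM to control for each gene (log axis) after 10 mGy (top), 100 mGy (middle) and 1 Gy (bottom), with 95% counting intervals as vertical lines. Dotted lines mark 1.2-fold in either direction, and the dashed line is the median of all 8507 genes, which lies below 1 in the upper panels and near 1 after 1 Gy.

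Origin licensing genes (ORC1, ORC6, CDC6, CDT1 and MCM2 to MCM7) summed to 923 CPM in the control, 801 after 10 mGy, 725 after 100 mGy and 940 after 1 Gy. The ratio to control was 0.868 (0.862 to 0.873) after 10 mGy and 0.785 (0.780 to 0.790) after 100 mGy, which on the scale of the median gene became 1.07 and 1.02. Of the 10 genes, 3 were over 1.2-fold lower after 10 mGy (53.0% of all genes were) and 7 after 100 mGy (58.9% of all genes), and none was higher (15.4% and 14.0% of all genes). On the scale of the median gene MCM4 alone was over 1.2-fold lower at both doses (27.3% and 29.01% of all genes were). ORC6, MCM5 and MCM6 were over 1.2-fold higher at both doses on that scale, and MCM2 after 10 mGy (30.6% and 31.8% of all genes). The 6 subunits of the MCM ring had different patterns. MCM4 was at 219 CPM in the control, 147 after 10 mGy, 129 after 100 mGy and 210 after 1 Gy. It was the lowest of this role relative to control after 10 mGy (0.669, 0.660 to 0.678), and it stayed below control on the scale of the median gene, at 0.8245 and 0.765 for 10 mGy and 100 mGy. MCM5 was at 73.0, 76.2, 70.1 and 79.97 CPM from control to 1 Gy, and after 10 mGy its ratio to control was the highest of the role (1.04, 1.02 to 1.07). On the scale of the median gene it was at 1.286 of control after 10 mGy and 1.253 after 100 mGy. MCM6 was at 38.5, 39.4, 35.8 and 38.7 CPM, nearly level as a share of UMIs but at 1.26 and 1.215 of control in the low-dose group on the scale of the median gene.

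As a share of UMIs MCM2 was close to control after 10 mGy and lower after 100 mGy, with 56.9, 55.6, 42.4 and 60.4 CPM from control to 1 Gy, and on the scale of the median gene it was at 1.204 and 0.973 of control. Its ratio between 100 mGy and 10 mGy was 0.763 (0.744 to 0.782), and 0.808 on the scale of the median gene. MCM3 was at 142, 136, 116 and 141 CPM, lowest after 100 mGy as a share of UMIs. Its ratios to control on the scale of the median gene were 1.18 after 10 mGy, 1.06 after 100 mGy and 0.972 after 1 Gy. MCM7 was at 145, 124, 120 and 164 CPM, with the largest ratio to control of all 48 genes after 1 Gy (1.13, 1.11 to 1.15). CDC6, the ATPase that helps to load the ring, was at 65.8, 54.3, 46.8 and 65.0 CPM, and ORC1, the ORC subunit whose level cycles, was at 20.6, 16.4, 13.4 and 19.2 CPM. Both were lower after 100 mGy than after 10 mGy, with ratios of 0.862 for CDC6 and 0.814 for ORC1. ORC6 was at 119 to 123 CPM in all 4 libraries, and CDT1 was between 30.8 and 42.4 CPM. On the scale of the median gene ORC6 was at 1.203 of control after 10 mGy and 1.283 after 100 mGy, and CDT1 at 1.027 and 1.029.

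Helicase activation genes (MCM10, CDC45 and GINS1 to GINS4) were split. MCM10, a factor needed to activate the helicase, was at 65.9, 43.8, 44.8 and 63.7 CPM from control to 1 Gy, so that both low-dose libraries were below the other two. Its ratio to control was 0.663 (0.648 to 0.680) after 10 mGy. GINS2 showed the opposite order, with 37.7, 45.9, 45.9 and 38.7 CPM and ratios of 1.22 (1.18 to 1.25) at both low doses. GINS4, another subunit of the same 4-subunit complex, was at 42.3, 31.8, 30.3 and 45.3 CPM. GINS1, GINS3 and CDC45 had ratios between 0.824 and 1.02 after 10 mGy and between 0.833 and 1.03 after 100 mGy. On the scale of the median gene GINS1 was at 1.015 after 10 mGy and GINS4 at 0.926, while GINS2 was at 1.5. On that scale MCM10 was at 0.817 after 10 mGy and, within 1.2-fold, 0.887 after 100 mGy. CDC45 was at 1.26 and 1.35 there, and GINS3 at 1.21 and 1.18.

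Within the clamp and clamp loader role, the clamp PCNA was furthest above control after 10 mGy. It was at 179 CPM in the control, 249 after 10 mGy, 182 after 100 mGy and 170 after 1 Gy. PCNA was thus 1.39-fold (1.37 to 1.41) higher after 10 mGy, near control after 100 mGy as a share of UMIs (1.02, or 1.33 on the scale of the median gene), and 0.950 (0.936 to 0.964) after 1 Gy. The ratio between 100 mGy and 10 mGy was 0.733 (0.724 to 0.741), the lowest of the 48 genes. In barcodes thinned to 5000 UMIs, 57.6% (56.6 to 58.7) had a PCNA UMI in the control, 67.8% (67.0 to 68.6) after 10 mGy, 58.5% (57.6 to 59.3) after 100 mGy and 56.0% (55.1 to 56.9) after 1 Gy. RFC4, a small subunit of the loader that opens the clamp, was likewise highest after 10 mGy and lowest after 1 Gy, with 49.1, 54.6, 48.6 and 43.7 CPM from control to 1 Gy and ratios to control of 1.11, 0.988 and 0.889. RFC3, another small subunit, was at 86.3, 70.8, 63.4 and 92.0 CPM, with the lowest ratio to control of the role at both low doses (0.821 and 0.735) but not after 1 Gy (1.07). RFC3 did not pass 1.2-fold on the scale of the median gene, where it was at 1.012 and 0.959 in the low-dose group. RFC1, RFC2 and RFC5 had ratios between 0.901 and 1.05 after 10 mGy and between 0.869 and 0.977 after 100 mGy.

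Polymerase and primase genes ranged widely, also within 1 enzyme. POLE, the catalytic subunit of polymerase epsilon, was at 51.4, 27.0, 25.4 and 53.5 CPM from control to 1 Gy. Its ratio to control was 0.525 (0.510 to 0.541) after 10 mGy and 0.493 (0.478 to 0.509) after 100 mGy, the lowest of all 48 genes at both doses, although POLA1 lay within counting error of it after 10 mGy (0.526, 0.509 to 0.544). POLE2, the second subunit of the same enzyme, was at 18.7, 20.9, 23.3 and 17.5 CPM, which is 1.12-fold (1.07 to 1.16) higher after 10 mGy and 1.24-fold (1.19 to 1.29) higher after 100 mGy. POLE stayed below control on the scale of the median gene (0.647 and 0.644), where POLE2 was at 1.37 and 1.62. POLA1, the catalytic subunit of polymerase alpha, was at 39.7, 20.9, 21.2 and 39.5 CPM, so that here too both low-dose libraries were below the other two. The other 6 genes of the role (POLA2, PRIM1, PRIM2, POLD1, POLD2 and POLD3) had ratios between 0.853 and 1.09 after 10 mGy and between 0.765 and 1.08 after 100 mGy. Catalytic and accessory subunits did not fall into separate ranges. The catalytic POLD1 was at 0.901 of control and the accessory POLD3 at 0.853 after 10 mGy, and PRIM1, the catalytic subunit of primase, was at 1.09. Exons of PRIM1 overlap those of NACA on the same strand, and exons of POLD3 those of AP001372.2.

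RPA3, the smallest subunit of replication protein A, was furthest above control. It was at 111 CPM in the control, 210 after 10 mGy, 238 after 100 mGy and 117 after 1 Gy, so both low-dose libraries were well above the other two. The ratio to control was 1.89 (1.86 to 1.92) after 10 mGy, 2.15 (2.12 to 2.18) after 100 mGy and 1.06 (1.04 to 1.08) after 1 Gy. An RPA3 UMI was found in 42.8% (41.8 to 43.9) of thinned barcodes in the control, 64.0% (63.2 to 64.9) after 10 mGy, 69.7% (69.0 to 70.5) after 100 mGy and 44.4% (43.5 to 45.3) after 1 Gy. The large subunit RPA1 was at 112, 108, 103 and 118 CPM, and RPA2 at 53.5, 60.2, 52.9 and 57.7 CPM. LIG1, the ligase that seals Okazaki fragments, was at 53.2, 46.7, 41.8 and 56.2 CPM, with the lowest ratio to control of the role after 10 mGy. FEN1, the nuclease that removes their flaps, was at 101, 91.4, 83.2 and 101 CPM. Exons of RPA3 overlap those of UMAD1 on the other strand, and the sources used here do not say whether counting used strand. The summed level of this role was 1.198-fold (1.188 to 1.208) that of control after 10 mGy, and RPA3 was the only gene of the role over 1.2-fold higher as a share of UMIs (15.4% of all genes were), the other 4 having ratios of at most 1.13. The sum was 1.48-fold that of control on the scale of the median gene. RPA2 was also past 1.2-fold there, at 1.39 after 10 mGy and 1.29 after 100 mGy (30.6% and 31.8% of all genes were higher).

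Genes of nucleotide supply and uracil removal were close to control in sum as a share of UMIs, at 0.998 (0.990 to 1.01) for 10 mGy and 0.983 (0.975 to 0.991) for 100 mGy, whereas on the scale of the median gene the sum was at 1.23 and 1.28. TYMS, which makes thymidylate, was at 106, 141, 128 and 105 CPM from control to 1 Gy, or 1.32-fold (1.30 to 1.35) higher after 10 mGy and 1.21-fold (1.18 to 1.23) higher after 100 mGy. Its exons overlap those of ENOSF1 and TYMSOS on the other strand. RRM2, the small subunit of ribonucleotide reductase, was at 210, 188, 187 and 233 CPM, with both low-dose libraries below the other two. On the scale of the median gene RRM2 was at 1.10 and 1.16 in the low-dose group, so its direction depended on the scale. RRM1 was between 172 and 185 CPM. UNG, which removes uracil from DNA, was at 21.8, 21.6, 18.0 and 21.8 CPM, so its share of UMIs was lowest after 100 mGy, but on the scale of the median gene it was at 1.22 of control after 10 mGy and 1.078 after 100 mGy.

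All 4 G1/S regulators of at least 10 CPM were over 1.2-fold lower than control after 100 mGy (58.9% of all genes were), and 2 of them were after 10 mGy (53.0% of all genes). On the scale of the median gene none of the 4 passed 1.2-fold after 100 mGy (31.8% of all genes were higher and 29.01% lower). There CCNE2 was at 0.836, close to the threshold, E2F1 at 0.934, DTL at 1.046 and CLSPN at 1.078. CCNE2 (cyclin E2) was at 41.7 CPM in the control, 34.6 after 10 mGy, 26.7 after 100 mGy and 42.9 after 1 Gy. It was at 0.831 (0.807 to 0.855) of control after 10 mGy and 0.641 (0.621 to 0.662) after 100 mGy. Its value after 10 mGy was 1.02 on the scale of the median gene. CCNE1 (cyclin E1) was at 7.85, 8.29, 5.55 and 8.17 CPM, which rests on 1356 to 2370 UMIs. Its ratio was 1.06 (0.992 to 1.12) after 10 mGy, within counting error of control, and 0.706 (0.657 to 0.759) after 100 mGy. Thus both cyclins E were lower after 100 mGy than after 10 mGy, with ratios of 0.771 (0.748 to 0.796) for CCNE2 and 0.669 (0.625 to 0.715) for CCNE1. The scale of the median gene kept that order (0.817 and 0.709). E2F1 was at 59.5, 47.3, 42.6 and 61.8 CPM, with the lowest ratio to control of the role after 10 mGy (0.795). That ratio was 0.980 on the scale of the median gene, within 1.2-fold. DTL, which with CUL4 and DDB1 degrades CDT1 on chromatin-bound PCNA, was at 53.3, 48.8, 42.7 and 52.2 CPM, and its ratio to control was the highest after 10 mGy among those of at least 10 CPM (0.914). CLSPN, a checkpoint mediator at the fork, was at 172, 144, 142 and 175 CPM.

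Of the genes that act on chromatin behind the fork, UHRF1 had the lowest ratio to control at both low doses. UHRF1 recruits DNMT1 to hemimethylated DNA, and was at 69.4, 44.0, 37.6 and 69.6 CPM from control to 1 Gy, a ratio of 0.633 (0.618 to 0.649) after 10 mGy and 0.542 (0.528 to 0.557) after 100 mGy. It stayed below control on the scale of the median gene, at 0.780 and 0.708. The histone chaperone subunit CHAF1A was at 66.9, 52.4, 43.2 and 66.2 CPM, and its partner CHAF1B at 28.6, 26.0, 23.0 and 30.8 CPM. SLBP, which binds the stem-loop of histone mRNAs, was at 85.2, 92.0, 83.3 and 85.8 CPM. Its ratio to control was the highest of the role after 10 mGy (1.08, 1.06 to 1.10).

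Ratios between 2 genes of a library do not depend on how libraries are scaled. They were computed for 8 pairs chosen after the values had been seen, of which 7 are subunits of the same complex and the other is the pair of cyclins E1 and E2, alternative partners of the kinase CDK2. The UMIs of RPA3 per UMI of RPA1 were 0.989 (0.971 to 1.01) in the control, 1.95 (1.93 to 1.98) after 10 mGy, 2.32 (2.29 to 2.36) after 100 mGy and 0.993 (0.976 to 1.01) after 1 Gy. For POLE2 per POLE the values were 0.364 (0.351 to 0.377), 0.772 (0.747 to 0.799), 0.917 (0.884 to 0.951) and 0.326 (0.314 to 0.339), in the same order. Both pairs thus lay well above control in the low-dose group and close to it after 1 Gy. The genes of the pairs and their order were set with the single ratios known. The pair values therefore restate those ratios and are no separate support for them. POLA2 per POLA1 was at 1.05, 1.75, 1.78 and 1.16, GINS2 per GINS4 at 0.893, 1.45, 1.51 and 0.855, and MCM5 per MCM4 at 0.333, 0.519, 0.545 and 0.381. PRIM1 per PRIM2 differed less, at 0.927, 1.15, 1.10 and 0.864. RRM2 per RRM1 was lowest after 100 mGy (1.02, 1.01 to 1.04) and highest after 1 Gy (1.29, 1.27 to 1.30). CCNE2 per CCNE1 was lowest after 10 mGy (4.18, 3.99 to 4.37) and between 4.82 and 5.31 in the other libraries.

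**Figure D3:**
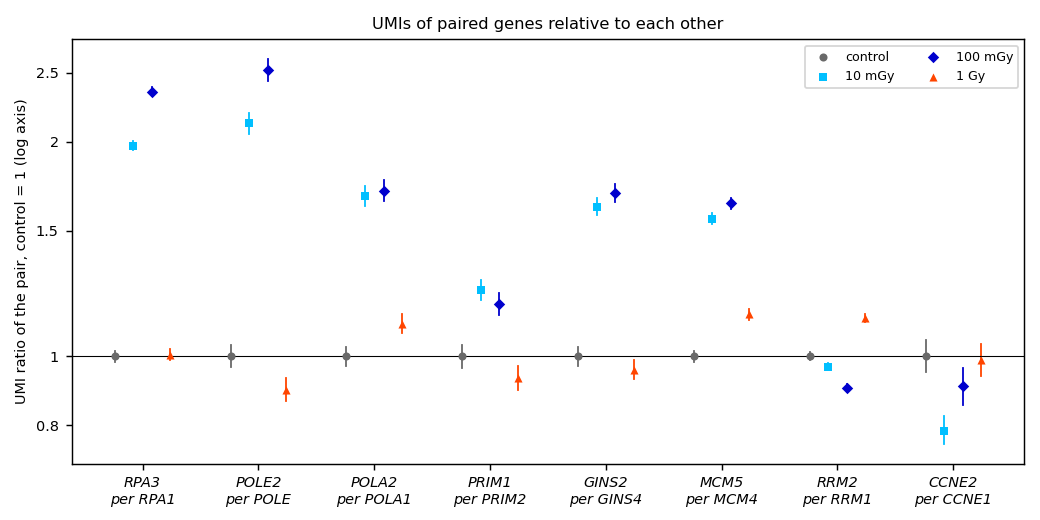
UMIs of 1 gene per UMI of the other gene of the pair in each library, divided by the control value (log axis), with 95% counting intervals of each ratio. In 6 of the 8 pairs both low-dose points lie above the control and the 1 Gy points, but the pairs were set with the single ratios known.

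Several genes with the lowest ratios in the low-dose group were longer in exons than several of those with the highest. Exonic length, which joins all annotated exons of a gene, was 16609 bases for POLE, 6336 for POLA1, 6973 for MCM4 and 5145 for UHRF1. It was 1471 bases for PCNA, 2470 for TYMS, 3232 for RPA3, 3264 for GINS2 and 2955 for POLE2. As a share of UMIs, PCNA passed 1.2-fold after 10 mGy but not after 100 mGy. Some short genes were low, with ORC1 (3157 bases) at 0.647 of control, E2F1 (2503 bases) at 0.715 and RFC3 (2874 bases) at 0.735 after 100 mGy. Over the 48 genes the Spearman correlation of exonic length with the log2 ratio to control was -0.57 after 10 mGy, -0.52 after 100 mGy and 0.20 after 1 Gy. Over 8452 other genes it was -0.55, -0.57 and 0.03, so that the same relation held across the transcriptome. These correlations are across genes, which share a library and are not replicates. Bins of length were set at the quartiles of the other genes. In the shortest bin the median log2 ratio after 10 mGy was 0.09 for 18 replication genes and 0.15 for other genes. In the second bin it was -0.13 for 17 replication genes and -0.23 for others, and in the third bin -0.24 for 12 and -0.42 for others. POLE was the only one of the 48 in the longest bin, where it was at -0.93 and other genes had a median of -0.59. At 100 mGy the medians were -0.02, -0.26 and -0.37 for the replication genes of the first 3 bins, and 0.10, -0.31 and -0.51 for other genes. MCM5, with 7338 bases, was above the median of its bin at both low doses. Among the pairs that were above control in the low-dose group, RPA3 and POLE2 are shorter in exons than RPA1 (5492 bases) and POLE. GINS2, PRIM1 and POLA2 are likewise shorter than GINS4, PRIM2 and POLA1, whereas MCM5 is longer than MCM4. The part of transcript length in the single ratios and in the pairs was not tested.

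**Figure D4:**
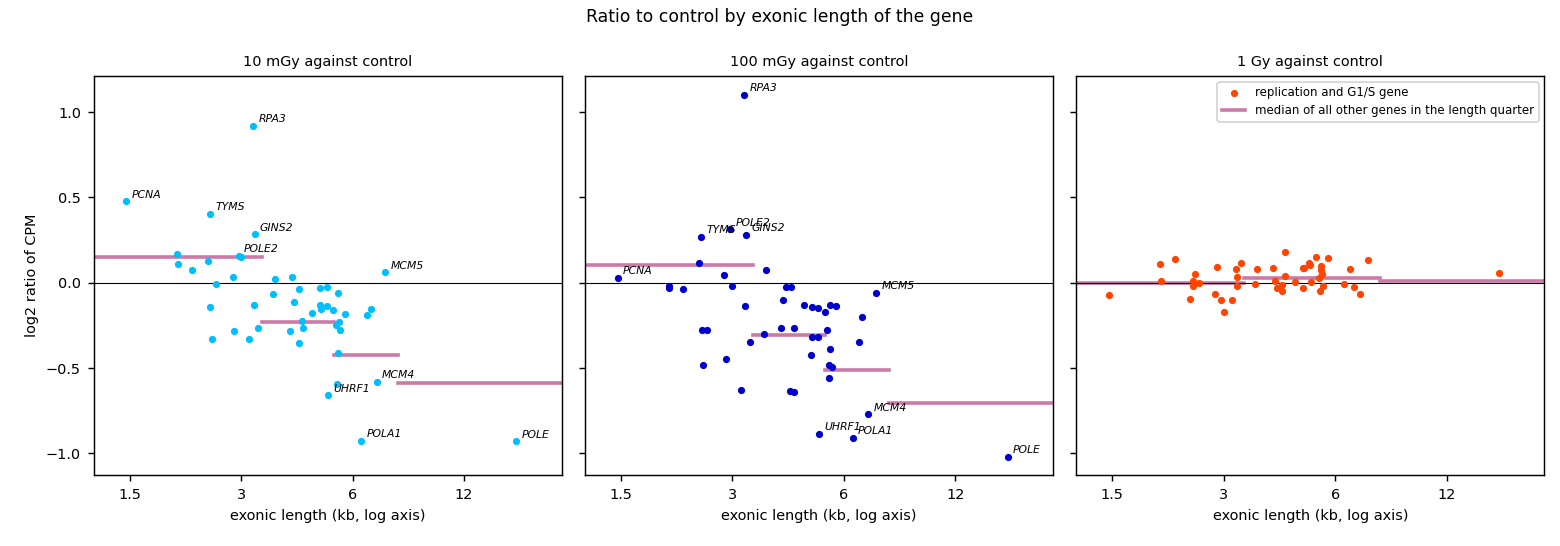
Log2 ratio of CPM to control (vertical axis) against exonic length in kb (log axis) for the 48 genes at each dose. Horizontal bars are the medians of all other genes in each bin of length, and both the genes and the bars decline with length after 10 mGy and 100 mGy but not after 1 Gy.

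The place of these genes in the cell cycle was read within each library. Barcodes of at least 5000 UMIs were thinned to 5000, which left 9060 to 14271 barcodes per library. Cells at or above the 80th percentile of the summed UMIs of 30 G2/M genes such as CCNB1 and TOP2A (G2/M-high) were set against cells at or below the 40th percentile (G2/M-low). The G2/M list shares no gene with the set. For all 49 genes together, the level in G2/M-high cells was 0.683 of that in G2/M-low cells in the control, 0.714 after 10 mGy, 0.688 after 100 mGy and 0.686 after 1 Gy. The median over the 49 genes was 0.665 (0.622 to 0.711) in the control, 0.722 (0.679 to 0.766) after 10 mGy, 0.683 (0.621 to 0.751) after 100 mGy and 0.654 (0.535 to 0.796) after 1 Gy, the interval being that of the median gene. For all genes of at least 10 CPM the median was between 1.01 and 1.02 in each library, and between 1.94% and 2.89% of other genes lay below the median of the set. Between 48 and 49 of the 49 genes were below 1, compared with 43.1% to 47.5% of all genes. The percentiles were taken within each library, so the cuts differed. G2/M-high cells held at least 39, 30, 35 and 40 UMIs of the G2/M list from control to 1 Gy. G2/M-low cells held at most 20, 17, 19 and 21. With classes set within each library in this way, the summed level was reduced in G2/M-high cells to a like extent in the control, 100 mGy and 1 Gy libraries. The reduction was somewhat smaller after 10 mGy. The G2/M list itself summed to 5803 CPM in the control, 4717 after 10 mGy, 5276 after 100 mGy and 5945 after 1 Gy.

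The 5 roles with the lowest medians came in the same order in every library, while the order of the other 3 changed between libraries. CCNE2 had the lowest ratio in 4 of 4 libraries, at 0.204 (0.168 to 0.246) in the control, 0.269 (0.229 to 0.314) after 10 mGy, 0.212 (0.176 to 0.253) after 100 mGy and 0.179 (0.150 to 0.213) after 1 Gy. CCNE1 lay between 0.275 and 0.376, with intervals that overlap each other in the 4 libraries. UNG lay between 0.333 and 0.397, MCM6 between 0.348 and 0.416, DTL between 0.379 and 0.451, MCM3 between 0.398 and 0.488, E2F1 between 0.425 and 0.440, CDC6 between 0.407 and 0.468, and PCNA between 0.451 and 0.525. The median over G1/S regulators was between 0.379 and 0.425 and that over licensing genes between 0.494 and 0.582. Next came genes of chromatin behind the fork (0.565 to 0.618), helicase activation (0.659 to 0.683) and the clamp and its loader (0.716 to 0.771). Polymerases and primase (0.790 to 0.884), flap removal, ligation and single-strand binding (0.797 to 0.896) and nucleotide supply and uracil removal (0.840 to 0.891) were higher. At the other end were RRM2 (0.941 to 1.02), GINS1 (0.945 to 1.00), RRM1 (0.953 to 0.977), POLD2 (0.909 to 0.989) and RPA1 (0.899 to 0.983), whose levels were the nearest to equal in both kinds of cell. MCM subunits differed here too, with MCM6 and MCM3 lowest in every library, MCM2, MCM4 and MCM5 between 0.424 and 0.613, and MCM7 between 0.692 and 0.736. RRM2, of nucleotide supply, and UNG, of uracil removal, were thus near opposite ends.

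**Figure D5:**
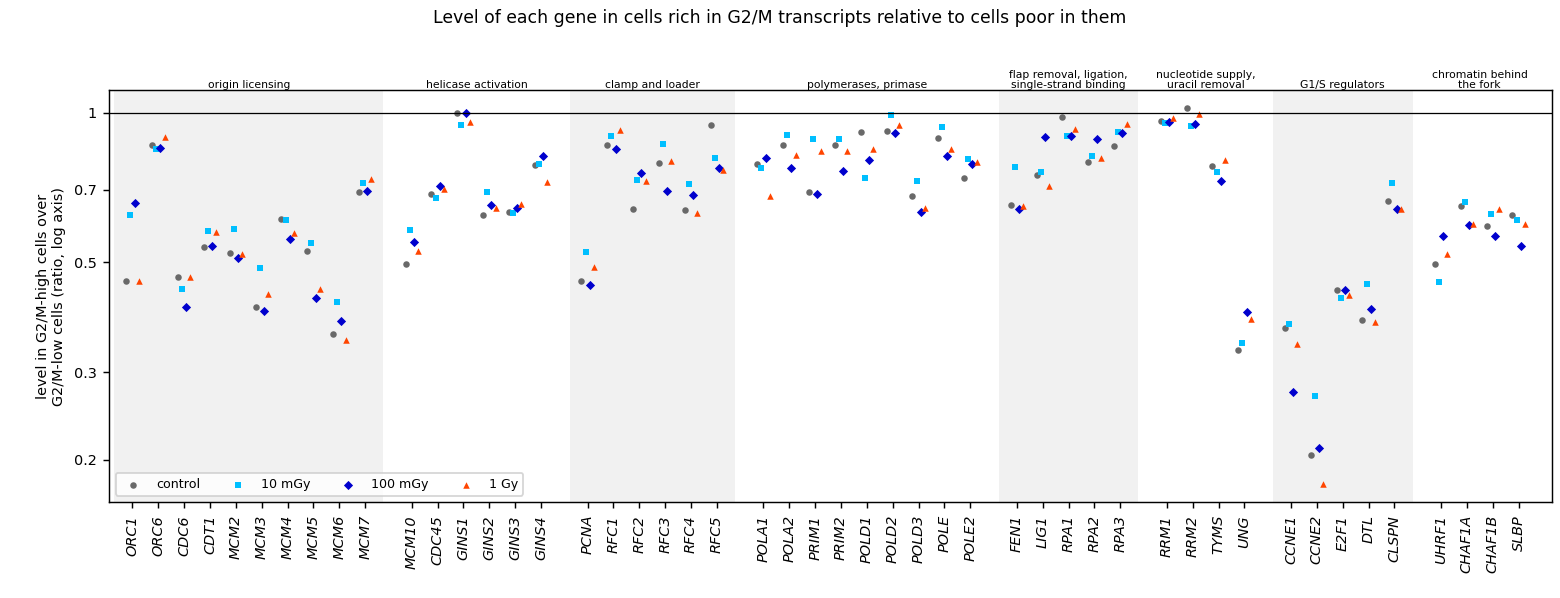
Level of each gene in G2/M-high cells over that in G2/M-low cells (log axis), with 1 point per library. CCNE2 lies lowest in all 4 libraries, CCNE1, UNG and MCM6 are among the lowest 5 in each, and RRM1, RRM2 and GINS1 lie near 1.

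Since many of these genes are known E2F targets, their promoters were searched for letters of an E2F-type site. RefSeq promoters (GRCh38.p14, from 250 bases before to 50 after the start) were searched on both strands for TTTCCCGC, TTTCGCGC, TTTGCCGC and TTTGGCGC, a search chosen after the values had been seen. A promoter was at hand for 42 of the 49 genes. At least 1 match was found in 22 of them (52.4%), compared with 3.99% of 27305 genes with a promoter and 7.42% of 6923 genes of at least 10 CPM. Of the 22, 16 had a match wholly before the start. Over the 22 genes with a match, the mean of the 4 cell cycle ratios had a median of 0.646 and ranged from 0.365 (UNG) to 0.976 (GINS1). Over the 20 genes without a match the median was 0.745, with a range from 0.340 (CCNE1) to 0.977 (RRM2). The ranges overlapped almost entirely. The windows below belong to the 6 genes with the lowest mean ratio among those with a match before the start, and to POLE, whose mean ratio was 0.873 although it holds a match. They are written 5′ to 3′ on the strand of the gene, and capitals mark matches.
UNG, chr12:109098094-109098131, plus strand: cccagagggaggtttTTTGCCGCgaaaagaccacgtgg
MCM6, chr2:135876507-135876610, minus strand: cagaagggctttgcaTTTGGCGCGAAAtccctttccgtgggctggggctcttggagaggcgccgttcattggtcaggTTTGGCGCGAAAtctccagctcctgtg
DTL, chr1:212035725-212035747, plus strand: agagcgtgacgtcagTTTGGCGC
MCM3, chr6:52284894-52284931, minus strand: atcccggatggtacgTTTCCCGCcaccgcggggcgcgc
E2F1, chr20:33686386-33686433, minus strand: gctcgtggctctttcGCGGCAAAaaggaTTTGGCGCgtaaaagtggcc
PCNA, chr20:5126659-5126696, minus strand: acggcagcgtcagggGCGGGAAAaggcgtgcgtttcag
POLE, chr12:132687343-132687375, minus strand: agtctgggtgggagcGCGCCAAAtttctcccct
In MCM6 each of the 2 capital runs holds 2 overlapping matches, TTTGGCGC and GCGCGAAA, the reverse complement of TTTCGCGC, which makes 4 in all. The match of DTL begins 8 bases and that of E2F1 nearest to the start begins 20 bases before the start. The match shown for MCM3 begins 174 bases before it. For MCM3 2 matches were counted, but windows hold only matches wholly before the start. PCNA and POLE hold their match on the other strand. A match says only that these letters are present.

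The dose ratios of single genes were also read separately in G2/M-low and G2/M-high cells, for 6 genes chosen after their values had been seen. RPA3 was at 1.85 (1.76 to 1.94) of control in G2/M-low cells and 1.97 (1.83 to 2.13) in G2/M-high cells after 10 mGy, and at 2.12 and 2.25 after 100 mGy. PCNA after 10 mGy was at 1.30 (1.25 to 1.35) and 1.49 (1.38 to 1.61). POLE was at 0.529 and 0.556 after 10 mGy, and UHRF1 at 0.613 and 0.563. CCNE2 after 100 mGy was at 0.672 (0.621 to 0.727) and 0.696 (0.540 to 0.898), and CDC6 at 0.722 and 0.627. As a share of UMIs, the difference from control thus appeared in both kinds of cell for these genes at these doses. Both kinds were set by percentiles within each library, so they do not have the same G2/M level in the libraries compared. The ratios of each kind of cell were not rescaled, and over all cells CDC6 was at 0.928 and CCNE2 at 0.836 after 100 mGy on the scale of the median gene, both within 1.2-fold. At 10 mGy CCNE2 was at 0.817 (0.755 to 0.883) in G2/M-low cells and 1.07 (0.850 to 1.36) in G2/M-high cells, where counting error covers 1.

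Single cells carried few of these transcripts at this depth. Per 5000 UMIs a cell held on average 18.4 UMIs of the 49 genes in the control, 17.5 after 10 mGy, 16.5 after 100 mGy and 18.8 after 1 Gy. The 5th and 95th percentiles over cells were 10 and 29 in the control and 8 and 26 after 100 mGy. The standard deviation over the mean across cells was 32.1%, 32.8%, 33.8% and 31.1% from control to 1 Gy, where counting alone gives 23.3%, 23.9%, 24.6% and 23.1%. The median share of barcodes with a UMI of a given gene was 24.3% in the control, 21.4% after 10 mGy, 19.8% after 100 mGy and 26.1% after 1 Gy. For CCNE2 the share was 17.8% (17.0 to 18.6) in control cells and 13.1% (12.5 to 13.7) after 100 mGy, and for CCNE1 it was 4.27% (3.86 to 4.71) and 2.66% (2.41 to 2.94). For POLE the share was 22.2% (21.3 to 23.0) in the control, 12.8% (12.2 to 13.4) after 10 mGy and 11.6% (11.0 to 12.1) after 100 mGy. The libraries hold no cell type known to lack these genes, so the share that free RNA gives could not be measured.

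For context, 50 other genes of replication and G1/S control were counted, of which 47 had at least 10 CPM. At 10 mGy, 6 were over 1.2-fold higher (15.4% of all genes were) and 23 lower (53.0% of all genes). At 100 mGy, 5 were higher (14.0% of all genes) and 25 lower (58.9% of all genes), and at 1 Gy none was higher (1.28% of all genes) and 1 lower (0.846% of all genes). These counts are of shares of UMIs, and they were not made on the scale of the median gene. Their median log2 ratio was -0.26 after 10 mGy, -0.32 after 100 mGy and -0.01 after 1 Gy, between that of the 48 genes and that of all genes at both low doses. The lowest after 10 mGy was TICRR, needed to recruit CDC45 to origins, with 18.4, 8.98, 8.77 and 19.1 CPM from control to 1 Gy. The highest was POLD4, the smallest subunit of polymerase delta, with 37.1, 60.5, 52.4 and 39.5 CPM.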

How the data were processed

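Single cells were captured with a droplet kit that reads the 3′ end of transcripts, per the labels. The authors deposited raw UMI counts per gene and barcode, without normalization. The file headers name Cell Ranger 7.0.1, and the submitters' processing notes name Cell Ranger, STAR and GRCh37. The list of 36601 genes is, however, the size of a GRCh38 Cell Ranger reference, so the build used is uncertain, and no coordinates from the deposit were used. The annotation, and whether intronic reads were counted, is not given in the sources used here. All deposited barcodes were used, doublets were kept and no doublet caller was run. UMIs were summed per library and divided by the library total (CPM), with a floor of a mean of 10 CPM over the 4 libraries for counts of genes. Ratios have exact conditional binomial intervals and shares have Clopper-Pearson intervals, all at 95% and for counting error only. Depth ranged from 211752280 to 285806026 UMIs, which makes the intervals narrow, while the spread between libraries of 1 dose could not be measured. The fold threshold of 1.2 is that of the study. Shares of barcodes and cell cycle ratios used barcodes thinned to 5000 UMIs, which left out between 2051 and 8953 barcodes per library. Exonic lengths came from GENCODE 29 by gene identifier, for 99.9% of genes. In that annotation exons of 7 of the 49 genes overlap those of another gene on the same strand (4 of them a gene in the deposited list) and exons of 17 overlap one on the other strand, and 9 have annotated pseudogenes, none of which is in the deposited list. The 4 are PRIM1 (with NACA), POLD3 (with AP001372.2), FEN1 (with FADS2) and CHAF1B (with MORC3). Promoters came from RefSeq. Values in full are given for MCM2 to MCM7, PCNA, CCNE1, CCNE2, E2F1, CDC6, RRM2 and the highest and lowest gene of each role at 10 mGy. Other genes named were chosen after their values were seen. The genes and lists were chosen with earlier results of these data known. Alternatives were 2 other scalings, a mean over barcodes, 3 other selections of barcodes, thinning, other floors, another fold and other cell classes. The code for ratios and intervals was checked on simulated independent Poisson counts. These held no spread between libraries, so the check does not bear on such spread. Python 3.11.15, numpy 2.4.6, scipy 1.17.1 and pandas 2.3.3 were used.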

Additional observations from a re-analysis of the deposited data

How the results depend on the processing

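No paired analysis was possible because each group has 1 library. Scaling turned directions. Median ratio scaling sets the median gene of each library equal to the geometric mean over the 4 libraries. The median log2 ratio of all genes to control was then -0.003 after 10 mGy, 0.0005 after 100 mGy and -0.015 after 1 Gy. With this scaling the summed level turned to 1.175 of control after 10 mGy and 1.166 after 100 mGy. It was 0.9993 after 1 Gy, where the median gene was itself slightly below control. The genes over 1.2-fold higher came to 18 after 10 mGy and 16 after 100 mGy (30.6% and 31.8% of all genes). Those lower came to 5 and 4 (27.3% and 29.01% of all genes). Of the 48 genes, 23 stayed on the same side of 1 after 10 mGy and 22 after 100 mGy. Among genes over 1.2-fold from control, it turned CDC6 to 1.016, GINS1 to 1.015, RFC3 to 1.012 and CCNE2 to 1.024 after 10 mGy. At 100 mGy it turned CDT1 to 1.029, MCM3 to 1.060, MCM7 to 1.086, GINS1 to 1.087, FEN1 to 1.078, LIG1 to 1.027, UNG to 1.078, DTL to 1.046, CLSPN to 1.078 and CHAF1B to 1.049. Without ribosomal protein and mitochondrially encoded genes in the total, the sum was 1.013 after 10 mGy and 0.969 after 100 mGy, with 7 and 14 genes lower (46.4% and 50.2% of all genes). No other alternative turned a gene past the fold. Other selections and weightings moved the sum after 10 mGy to 0.960 (without barcodes of very high UMI count), 0.949 (thinned to 5000 UMIs) and 0.958 (mean over barcodes), the sum after 100 mGy to 0.897 (without barcodes of very high UMI count) and the sum after 1 Gy to 1.025 (mean over barcodes). With thinning 2 genes were higher after 100 mGy (13.99% of all genes). At 1.5-fold, 1 gene was higher and 4 lower after 10 mGy (4.94% and 25.8% of all genes), and 1 higher and 7 lower after 100 mGy (5.04% and 33.95% of all genes). At 1 Gy no alternative brought a gene of the set past the fold. Of all genes, 0.658% were then higher and 1.59% lower with median ratio scaling, and 2.21% and 1.23% with thinning. The median share of barcodes with a UMI followed depth. Unthinned it was 57.4% in the control, 38.0% after 10 mGy, 35.7% after 100 mGy and 47.8% after 1 Gy. At 2000 UMIs it was 10.5%, 9.24%, 8.52% and 11.3%, and at 10000 UMIs 42.3%, 38.1%, 35.1% and 44.4%. The median cell cycle ratio was 0.621 in the control and 0.652 after 10 mGy with cells at or below the 50th percentile set against those at or above the 90th. Depth thus limits the share of barcodes with a UMI. The spread between libraries of 1 dose was not measured.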

Other observations

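Genes outside the set were ranked by their correlation over cells with the summed UMIs of the 49 genes, averaged over the 4 libraries, in barcodes thinned to 5000 UMIs. This is a description over cells of the same libraries, without a test. The 49 genes themselves, each against the sum of the others, had a median r between 0.067 and 0.074 in the 4 libraries, while other genes had a median between 0.001 and 0.006 and a 95th percentile between 0.038 and 0.043. Of the 15 genes outside the set with the highest mean r, the first was NEAT1 (0.197), a nuclear RNA that is not known as a replication gene. Also among them were the linker histone HIST1H1B (0.195), the core histones HIST2H2AC (0.171) and HIST1H4C (0.168), the protease FAM111B (0.196), the chromatin remodeller HELLS (0.185) and the mismatch repair gene MSH6 (0.140). The nuclear RNA MALAT1 (0.144) and the secreted proteins CCN2 (0.133) and IGFBP3 (0.130), none of them known as replication genes, were in the list too. The r of MALAT1 was 0.105 in the control, 0.202 after 10 mGy, 0.182 after 100 mGy and 0.086 after 1 Gy, and that of HIST1H1B was 0.233, 0.133, 0.186 and 0.230. Values of this size in sparse counts are weak.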
